A study of Mus musculus with 249 samples.

Results

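Mouse brains were compared here at the ends of a scale of immediate early gene transcripts: 62 brains with the highest score and 62 with the lowest, out of 249 arrays in the series. The score of a brain was the mean, over Egr2, Dusp1, Fos and Arc, of the gene's distance from its mean over arrays, in units of its SD. The middle brains, between the groups, belonged to neither. All animals were F2 offspring of C57BL/6J and C3H/HeJ mice, lacked ApoE and ate a Western diet between 8 and 24 weeks of age, so that these conditions were shared by the high score and the low score brains. Both sexes were included, 330 mice are named in the labels as the cross, and sex, genotype, array batch, time of day and handling before death are not given for each animal in the sources used here. Each array held RNA of 1 animal (Cy3) against a pool of RNA from all animals (Cy5), and each value is a log10 ratio of animal to pool, on which 0.301 is a factor of 2. The array of animal 144, which had the widest spread of values (SD 0.392 against at most 0.258), was left out.

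Immediate early genes are transcribed within minutes of a stimulus from factors already present in the cell, before any new protein is made. In neurons calcium entry through synaptic receptors and channels activates the kinases that phosphorylate CREB, bound at cAMP response elements, and the serum response factor complex, bound at CArG boxes. Transcription factors of the Egr, Fos, Jun and Nr4a families are made first, with effectors such as Arc, and slower genes such as Bdnf follow. Their transcripts are short-lived, and in the brain they are widely used as a mark of recent neuronal activity.

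The promoters of 6 of the genes on which the results rest are printed to show these elements beside the values that follow. They are the 250 bases before the transcription start in RefSeq's annotation of GRCm38.p6, 5′ to 3′ on the strand of the gene, with capitals at the cAMP response element TGACGTCA, at its shorter core TGACG on either strand, and at the CArG box. The core lies within the full element. Where RefSeq lists several starts for a gene, 1 is shown, picked by weighting full elements most, then CArG boxes, then cores. Egr2 lies at chr10:67537619-67537868 (plus strand), Dusp1 at chr17:26508473-26508722 (minus strand) and Fos at chr12:85473640-85473889 (plus strand). Nr4a1 lies at chr15:101266596-101266845 (plus strand), Btg2 at chr1:134079156-134079405 (minus strand) and Junb at chr8:84978749-84978998 (minus strand).
Egr2: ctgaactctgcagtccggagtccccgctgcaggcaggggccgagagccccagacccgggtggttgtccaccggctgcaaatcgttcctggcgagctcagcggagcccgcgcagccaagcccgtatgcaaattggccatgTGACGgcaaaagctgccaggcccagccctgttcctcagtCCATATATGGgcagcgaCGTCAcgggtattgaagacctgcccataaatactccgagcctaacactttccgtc
Dusp1: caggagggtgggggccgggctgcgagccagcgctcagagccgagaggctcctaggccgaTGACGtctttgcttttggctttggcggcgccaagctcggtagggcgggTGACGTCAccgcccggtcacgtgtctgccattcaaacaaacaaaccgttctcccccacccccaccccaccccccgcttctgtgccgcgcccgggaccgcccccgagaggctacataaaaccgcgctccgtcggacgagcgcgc
Fos: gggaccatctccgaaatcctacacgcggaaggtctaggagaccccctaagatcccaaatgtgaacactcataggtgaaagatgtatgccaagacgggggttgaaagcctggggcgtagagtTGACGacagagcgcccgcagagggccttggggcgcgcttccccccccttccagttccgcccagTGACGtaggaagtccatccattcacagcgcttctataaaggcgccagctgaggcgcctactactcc
Nr4a1: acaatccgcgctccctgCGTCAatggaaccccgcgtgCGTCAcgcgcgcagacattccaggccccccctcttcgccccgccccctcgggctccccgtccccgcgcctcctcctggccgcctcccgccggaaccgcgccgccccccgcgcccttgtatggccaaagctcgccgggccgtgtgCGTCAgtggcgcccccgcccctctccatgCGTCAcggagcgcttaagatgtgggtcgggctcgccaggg
Btg2: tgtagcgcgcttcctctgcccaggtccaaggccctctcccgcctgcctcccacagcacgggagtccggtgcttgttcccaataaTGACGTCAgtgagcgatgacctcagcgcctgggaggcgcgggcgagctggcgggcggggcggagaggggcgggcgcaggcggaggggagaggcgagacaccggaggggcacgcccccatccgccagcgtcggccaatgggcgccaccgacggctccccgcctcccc
Junb: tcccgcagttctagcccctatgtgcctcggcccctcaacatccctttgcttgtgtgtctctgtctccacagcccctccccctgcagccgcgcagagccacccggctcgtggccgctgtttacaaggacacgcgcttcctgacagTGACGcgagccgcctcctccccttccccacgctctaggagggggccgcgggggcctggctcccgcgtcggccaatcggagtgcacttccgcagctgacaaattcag
Dusp1 and Btg2 held the full element, Egr2 held 1 CArG box and 2 cores, and Nr4a1 held 4 cores. The Fos promoter held 2 cores and that of Junb held 1. Each match describes letters in this window only.

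The genes that chose the groups are given as a description, with no test. The score of the high score brains ran from 0.674 through a median of 1.10 to 2.54, and that of the low score brains from -1.74 through -1.09 to -0.758. The next brain below the high group, animal 333, had a score of 0.642 (animal 82, the last one in, 0.674), and the next one above the low group, animal 334, had -0.750 (animal 231, the last one in, -0.758). The groups are thus the ends of a continuous scale. All 4 genes lay above their median over all scored arrays in 59 of 62 high score brains, and below it in 57 of 62 low score brains. In the other 3 high score and 5 low score brains, 3 of the 4 did.

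Egr2, a zinc finger transcription factor, had the widest range. Its log10 ratio in the high score brains ran from 0.0160 through a median of 0.190 to 0.447, and in the low score brains from -0.748 through -0.261 to -0.0191. Every high score brain was above the pool and every low score brain below it. Arc, which binds the endocytic machinery that removes AMPA receptors from synapses, ran from -0.00938 through 0.186 to 0.511 in high score brains and from -0.402 through -0.223 to 0.0186 in low score brains. The mean ratios differed 2.93-fold for Egr2 and 2.62-fold for Arc.

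Dusp1, a nuclear phosphatase that switches off MAP kinases, ran from -0.0688 through 0.110 to 0.277 in high score brains and from -0.314 through -0.156 to -0.0652 in low score brains. Fos, a subunit of the AP-1 transcription factor, had the narrowest range: -0.0395 through 0.0720 to 0.220 in high score brains, and -0.184 through -0.0817 to 0.0294 in low score brains. The groups overlapped slightly for both genes, and the differences were 1.86-fold for Dusp1 and 1.44-fold for Fos. When the groups were chosen by 3 of the genes and the left-out one was read, the difference was 2.65-fold for Egr2, 2.47-fold for Arc, 1.77-fold for Dusp1 and 1.42-fold for Fos. In each case all 62 high score brains lay above the low score median. The 4 genes had been put together because they were known to vary together, so these values too are a description.

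**Figure D1:**
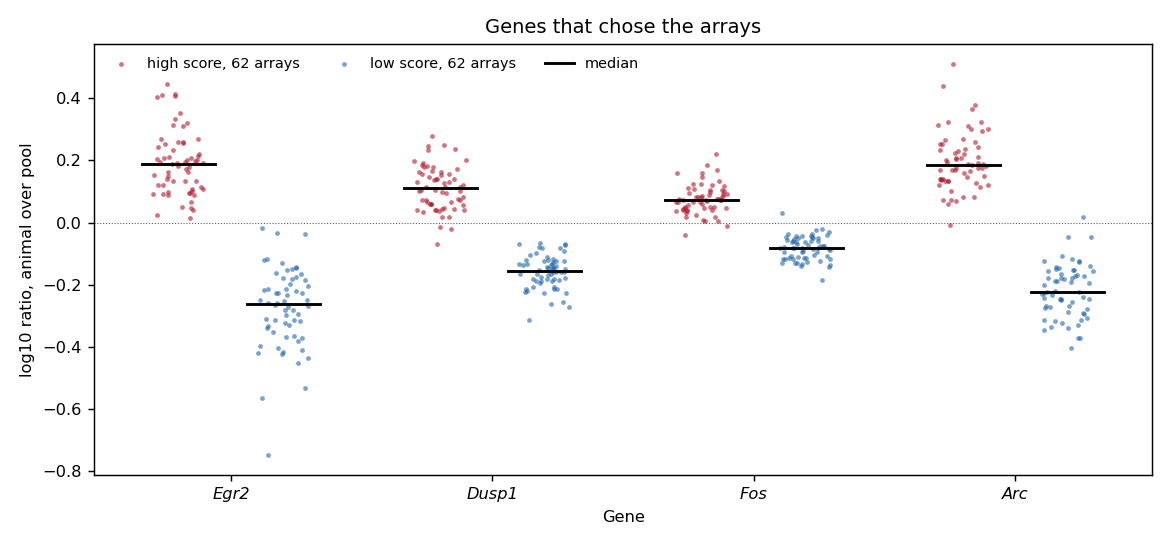
Log10 ratio of animal to pool for the 4 genes that chose the arrays, 1 point per brain, with the 62 high score brains left of the 62 low score brains and bars at the medians. Egr2 is the gene whose groups do not meet, and Fos spans the smallest range.

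Among the genes that the score did not use, other immediate early genes stood first. Of 11481 genes tested, 77 passed an adjusted p of 0.05 (0.671%; limma, Benjamini-Hochberg over all genes), 57 higher in the high score brains (0.496%) and 20 lower (0.174%), and 1521 had an unadjusted p under 0.05. After quantile normalization 90 were higher and 88 lower. The 11 genes with the largest test statistic all belonged to the lists of immediate early genes. Of 45 measured members of these lists 17 rose (37.8%) and 0 fell, and none was lower at an unadjusted p under 0.05. Folds of the 57 higher genes ran from 1.06 to 1.63 and those of the 20 lower genes from 1.04 to 1.35. The score and the tested genes come from the same arrays and share any error of the array. The p-values rest on the spread between arrays, 1 per animal, in which differences between animals and technical error are mixed. In whole tissue fewer cells of a type and less RNA per cell cannot be told apart.

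**Figure D2:**
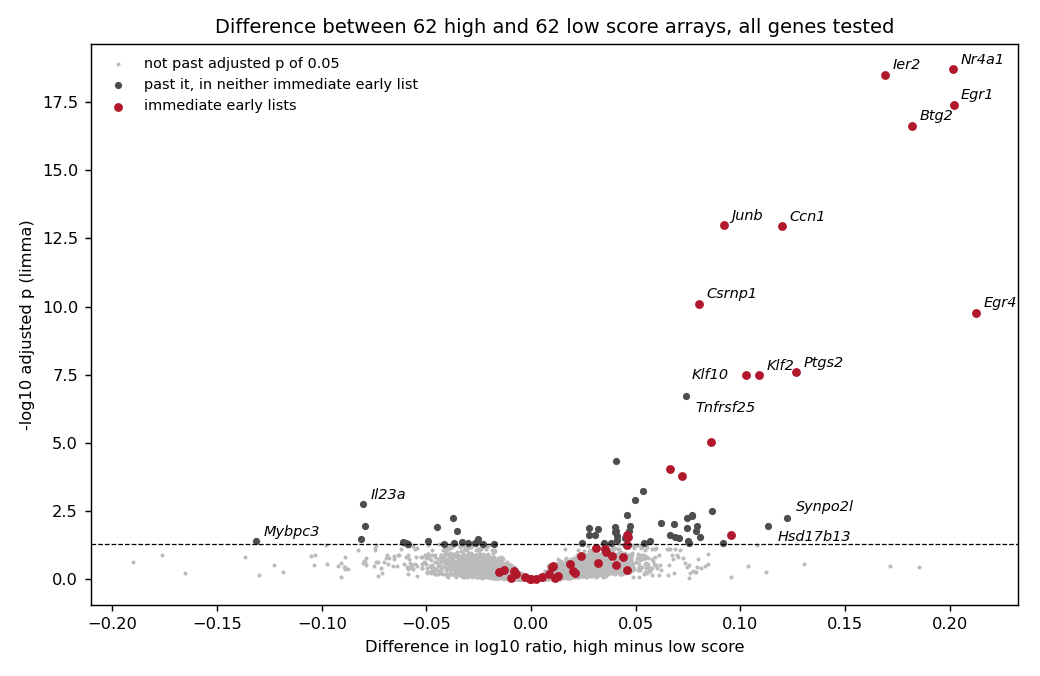
Difference in log10 ratio between high and low score brains (x axis) against the negative log10 of the adjusted p from limma (y axis) for 11481 genes, with the threshold of 0.05 as a dashed line. Members of the immediate early lists are in red, and the 11 leading points at the upper right are all among them, while the lower gene past the threshold with the largest difference is Mybpc3 at -0.131.

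Among the transcription factors of the immediate early list, 11 of 25 measured members rose, with a median difference of 0.0441 against -0.000508 over all genes. The orphan nuclear receptor Nr4a1 ran from -0.0300 through 0.0887 to 0.388 in high score brains and from -0.263 through -0.112 to 0.232 in low score brains. All 62 high score brains lay above the median of the low score brains, though a few low score brains reached high levels. The difference was 0.202 ± 0.0163 (SE), a 1.59-fold rise (limma, adjusted p = 2.00e-19).

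Egr1, the zinc finger factor of the same family as Egr2, ran from -0.160 through 0.0773 to 0.269 in high score brains and from -0.355 through -0.139 to 0.125 in low score brains, a 1.59-fold rise (limma, adjusted p = 3.87e-18). The ranges overlapped, with 61 of 62 high score brains above the low score median. Its relative Egr4 had the largest difference of all tested genes, 0.213 ± 0.0255, which is 1.63-fold. Egr4 also spread widely within groups, from -0.276 through 0.0969 to 0.482 in high score brains and from -0.483 through -0.120 to 0.166 in low score brains.

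Ier2, a small nuclear protein, ran from -0.0680 through 0.0670 to 0.269 in high score brains and from -0.305 through -0.0807 to 0.151 in low score brains, a 1.48-fold rise (limma, adjusted p = 3.09e-19). Of all pairs of 1 high and 1 low score brain, the high score brain had more Ier2 in 95.3%. Btg2, an antiproliferative cofactor that promotes deadenylation of mRNA, ran from -0.174 through 0.0725 to 0.304 in high score brains and from -0.382 through -0.0972 to 0.0105 in low score brains. No low score brain was far above the pool, and 46 high score brains exceeded the highest of them. The rise of Btg2 was 1.52-fold (limma, adjusted p = 2.34e-17).

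Junb, the AP-1 partner of Fos, rose 1.24-fold (0.0921 ± 0.00944), with 56 high score brains above the low score median. Csrnp1, a nuclear protein induced by axin, rose 1.20-fold, and Nr4a2, the nuclear receptor needed by dopamine neurons, 1.22-fold. The Krüppel-like factors Klf2, Klf10 and Klf4 rose by 0.109, 0.103 and 0.0956 on the log10 scale, with limma's adjusted p at 3.23e-08 for the first pair and 0.0239 for Klf4. In Klf4 the ranges were wide, from -0.303 to 0.295 in high score brains and from -0.547 to 0.128 in low score brains.

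**Figure D3:**
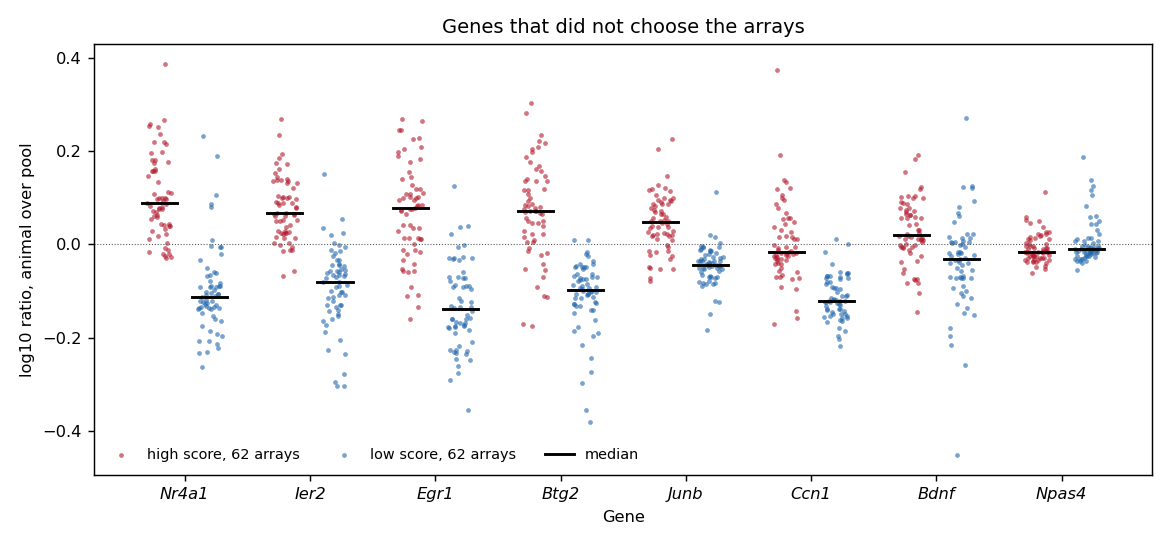
Log10 ratio of animal to pool for 8 genes that the score did not use, 1 point per brain, with 62 high score brains left of 62 low score brains and bars at the medians. The high score median is the higher one in all but Npas4, and the ranges of the groups overlap in each gene.

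Of 20 measured effectors and signalling genes in the other immediate early list, 6 rose and 0 fell, with a median difference of 0.0279. Ptgs2, the inducible cyclooxygenase that makes prostaglandins in excitatory neurons, ran from -0.304 through 0.0522 to 0.237 in high score brains and from -0.643 through -0.0538 to 0.101 in low score brains. It was 1.34-fold higher (limma, adjusted p = 2.60e-08), and 59 high score brains lay above the low score median. Ccn1, a secreted matrix protein that binds integrins, ran from -0.170 through -0.0153 to 0.374 in high score brains and from -0.218 through -0.121 to 0.0123 in low score brains, a 1.32-fold rise. Most brains of both groups lay below the pool for this gene.

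Its relative Ccn2 rose by 0.0664 ± 0.0118. Gadd45b and Gadd45g, stress-response proteins, rose by 0.0720 and 0.0461, and Rgs2, which shortens signalling of G proteins, by 0.0459. Gadd45g did not pass with a glucocorticoid score as covariate (0.0343; limma, adjusted p = 0.0793) or without Dusp1 in the score (0.0538). The folds of the 4 genes were 1.17, 1.18, 1.11 and 1.11. In Gadd45b and Gadd45g no high score brain exceeded the highest low score brain, which stood at 0.359 and 0.354.

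The other 28 members of these lists did not pass the test, with differences from -0.0154 to 0.0458. Npas4, the neuronal factor that answers calcium entry most selectively, differed by -0.0131 (95% interval -0.0274 to 0.00123; limma, adjusted p = 0.438). Its levels hardly spread in most brains, from -0.0614 through -0.0151 to 0.112 in high score brains and from -0.0557 through -0.00990 to 0.189 in low score brains. Jun, the main partner of Fos in AP-1, differed by -0.0154 (95% interval -0.0366 to 0.00577), Egr3 by -0.00828, Fosl2, a Fos relative, by -0.00720 and the nuclear receptor Nr4a3 by 0.00541. Intensities are not analysed here, so it is unknown whether these probes read above background.

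Members closer to the threshold were Ier5 at 0.0458 (limma, adjusted p = 0.0573), the clock repressor Nfil3 at 0.0312 (0.0734), Homer1, a scaffold of metabotropic glutamate receptors, at 0.0352 (0.0782) and the cAMP-responsive factor Crem at 0.0441 (0.150). In all, 38 of the 45 members had a positive difference.

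**Figure D4:**
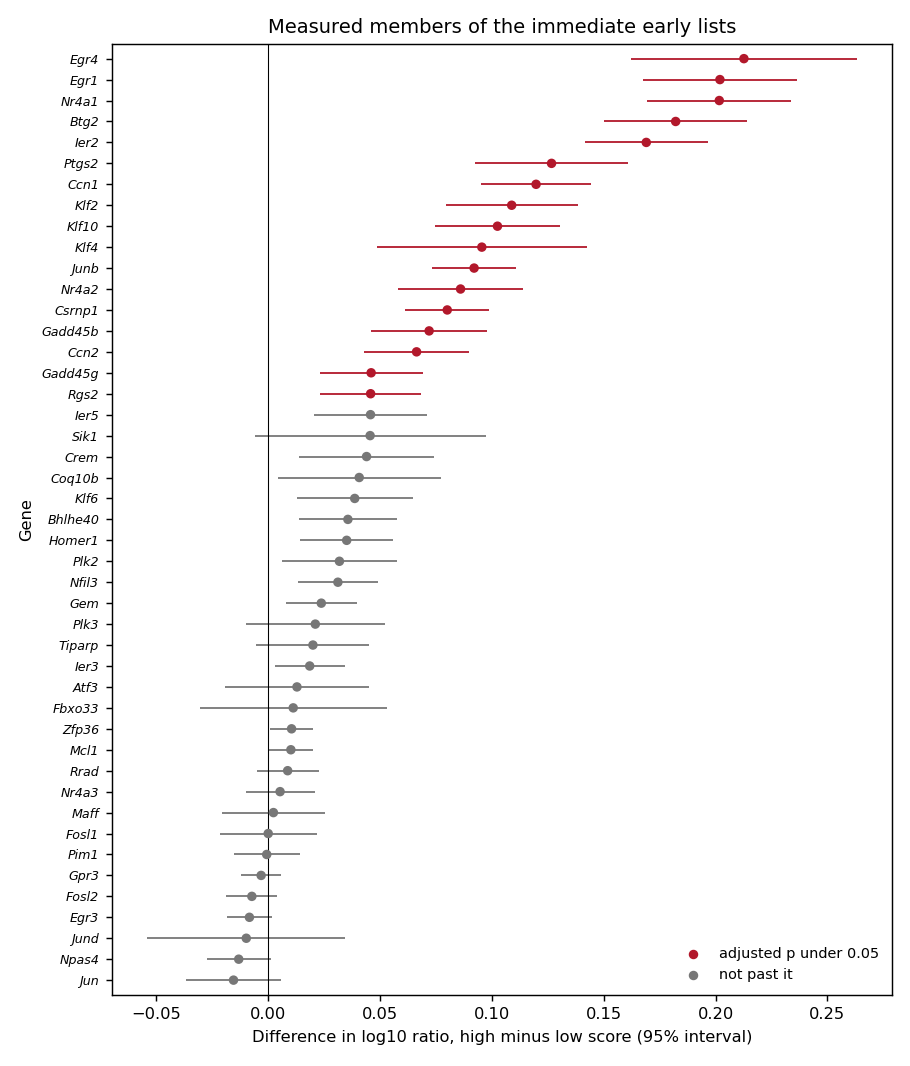
Difference in log10 ratio, high minus low score brains, for 45 measured members of the immediate early lists, with 95% intervals from limma. The 17 members past an adjusted p of 0.05, in red, all lie right of 0, from Rgs2 at 0.0459 to Egr4 at 0.213.

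Genes from further along the activity response passed the test less often than the immediate early genes, of which 37.8% rose. Of 20 later activity-dependent genes 1 rose and 0 fell, against 0.496% higher and 0.174% lower of all genes. Their median difference was 0.0136, with 19 positive and 3 at an unadjusted p under 0.05, as were 1521 of all 11481 genes. The riser was Bdnf, the neurotrophin released by active neurons, which ran from -0.146 through 0.0210 to 0.193 in high score brains and from -0.452 through -0.0314 to 0.272 in low score brains. The groups overlapped broadly, and the rise was 1.17-fold (limma, adjusted p = 0.00912). Bdnf did not pass with region scores as covariates (limma, adjusted p = 0.0584), with 31 brains a group (0.0883) or with all scored brains split at the middle (0.0748). Inhba, the activin subunit, differed by 0.0596 (adjusted p = 0.0686).

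Of 12 MAP kinase phosphatases and feedback inhibitors beside Dusp1, 1 rose (of all genes 0.496% did): Dusp14, by 0.0570 ± 0.0149. It no longer passed with bins of animal numbers as a block (limma, adjusted p = 0.0677) or with scores of region lists as covariates (0.258). The median of this list was 0.00667. The phosphatase Dusp15, on no list, fell by 0.0330 (0.0754 and 0.199 in these fits). Among 15 clock genes the light-inducible repressor Per2 rose by 0.0862 ± 0.0182 (limma, adjusted p = 0.00320), while Per1 differed by 0.0422 (adjusted p = 0.0514). Of 17 glucocorticoid response genes 0 passed, with a median of 0.0100 and 5 at an unadjusted p under 0.05, as were 1521 of all 11481 genes. The salt and glucocorticoid kinase Sgk1 had the largest difference of that list, 0.0846 ± 0.0268 (limma, adjusted p = 0.114). Of 13 heat shock genes 0 passed, with 4 at an unadjusted p under 0.05, and Hspa1a, an inducible chaperone, differed by 0.0432.

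The 40 higher genes outside the immediate early lists had a median difference of 0.0554, against 0.103 for the 17 inside them. The leading one was Tnfrsf25, a death domain receptor of the tumour necrosis factor family, which ran from -0.0526 through 0.0427 to 0.278 in high score brains and from -0.227 through -0.0258 to 0.141 in low score brains. It rose by 0.0741 ± 0.0107 (limma, adjusted p = 1.90e-07), with 58 high score brains above the low score median. Plcl2, a phospholipase C relative without catalytic activity, rose by 0.0405 and Sertad1, a regulator of cyclin-dependent kinase, by 0.0535. Nfkbiz, a nuclear inhibitor of NF-kappaB, rose by 0.0768, the antiproliferative Tob1, a relative of Btg2, by 0.0753 and the ETS factor Etv5 by 0.0704. Atp8a1, a phospholipid flippase, rose by 0.0918. Siah2, a ubiquitin ligase, and Mycn, a transcription factor of the Myc family, rose by 0.0469 and 0.0456. With bins of animal numbers as a block Tob1, Etv5 and Siah2 no longer passed (limma, adjusted p = 0.0719, 0.0834 and 0.0804). With region scores Tob1, Etv5, Atp8a1 and Mycn no longer passed (0.0827, 0.145, 0.207 and 0.0927). The largest of these differences was that of Synpo2l, an actin-binding protein, at 0.122 ± 0.0270.

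The 20 lower genes, 0.174% of all genes, differed little. No list of related genes held more than 1 of them, which says little at that share in lists of 4 to 25 measured genes. Mybpc3, the cardiac myosin-binding protein, was the only lower gene past 0.1 in size. It ran from -0.746 through -0.0258 to 0.189 in high score brains and from -0.733 through 0.0439 to 0.402 in low score brains. Il23a, the cytokine subunit p19, ran from -0.326 through -0.00585 to 0.148 in high score brains and from -0.188 through 0.0651 to 0.255 in low score brains, a fall of 0.0803 ± 0.0164 (limma, adjusted p = 0.00176). Mpst, a sulfurtransferase, fell by 0.0795, the homeobox factor Lhx5 by 0.0813 and Ung, which removes uracil from DNA, by 0.0449. The water channel Aqp1, of the choroid plexus list, fell by 0.0589, and the interferon-induced GTPase Mx2 by 0.0231, both at a limma adjusted p of 0.0495. Grb7, a signalling adaptor, fell by 0.0610, Cd83, a surface protein of immune cells, by 0.0372, and Mtag2, Apeh, Tuft1 and Ybey by 0.0417, 0.0370, 0.0353 and 0.0303.

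Most of the lower genes did not pass in fits that took in animal number or region scores. With bins of animal numbers as a block 8 of the 20 passed, and Mybpc3 (limma, adjusted p = 0.0795), Lhx5 (0.0719), Mx2 (0.0895), Grb7 (0.0719), Apeh (0.0818) and Tuft1 (0.151) did not. With region scores 2 of the 20 passed, Il23a and Aqp1, and the difference of Mybpc3 was -0.0543 (adjusted p = 0.179) and that of Lhx5 -0.0415 (0.311).

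Several called genes that were no immediate early genes were neighbours in the genome. Neighbouring genes tend to be inherited together in an F2 cross. On chromosome 5, 6 higher genes, Anxa3, Coq2, Hsd17b13, Ibsp, Brdt and Mtf2, stood within a run of 43 measured genes. In this run 13 genes had an unadjusted p under 0.05. It was drawn from the first to the last of the higher genes, so both its ends are higher genes by choice. Of all 11481 genes tested 0.496% were higher, and 1521 had an unadjusted p under 0.05. On the whole of chromosome 5, 7 of 659 genes were higher (1.06%), which was not the largest share. Chromosome 1 had 7 of 621 (1.13%). Over all scored arrays the 15 pairs among the 6 genes had correlations from 0.0593 through a median of 0.418 to 0.764. Hsd17b13, a lipid droplet enzyme, ran from -0.229 through 0.0607 to 0.406 in high score brains and from -0.339 through -0.0371 to 0.254 in low score brains, and rose by 0.113 ± 0.0263 (limma, adjusted p = 0.0114). Mtf2, a partner of Polycomb complexes, rose by 0.0746 and Brdt, a bromodomain protein of the germ line, by 0.0473. Ibsp no longer passed with bins of animal numbers as a block (limma, adjusted p = 0.0719), and Anxa3, Coq2, Hsd17b13 and Ibsp no longer passed with region scores (0.0790, 0.123, 0.0790 and 0.0790).

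On chromosome 2, Mybpc3, Nr1h3 and F2, all lower, and Madd, higher, stood with at most 7 measured genes between them. With the block Mybpc3, Nr1h3 and Madd no longer passed (0.0795, 0.0663 and 0.107). Mybpc3 and Nr1h3, the liver X receptor alpha, had a correlation of 0.697 over the same arrays, the highest among these genes. F2 had 0.252 with Mybpc3 and 0.259 with Nr1h3. Madd had 0.0586 with Mybpc3, 0.112 with Nr1h3 and -0.0383 with F2. The immediate early genes Ier2 and Junb are neighbours too, with 10 measured genes between them, as are Rgs2 and Ptgs2, with 5. Their correlations were 0.687 and 0.674. Other called neighbours, each a higher with a lower gene, had lower ones. These were -0.0127 (Asf1b and Ier2), -0.146 (Asf1b and Junb), -0.103 (Ap1m1 and Klf2) and -0.159 (Gm4798 and Ybey). Egr2, Dusp1 and Fos, on chromosomes 10, 17 and 12, are no neighbours. Their pairs had 0.702, 0.778 and 0.795, though these genes were put together because they vary together. All these correlations are over brains that share the pool. The neighbours were singled out after their values were seen, genotypes are not analysed here, and the part of inheritance in these differences was not tested.

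The middle brains, which no group comparison used, gave a reading of the same relation. There the slope on the score passed the test for 3 genes (0.0261%; limma, adjusted p under 0.05), and 839 had an unadjusted p under 0.05. The 3 genes were Ier2 with a slope of 0.0966 ± 0.0136 in log10 ratio per unit of score, Btg2 with 0.0804 ± 0.0125 and Nr4a1 with 0.0842 ± 0.0174. All 17 immediate early genes called between the groups had a positive slope, and 9 of them an unadjusted p under 0.05, against 45.5% of all genes with a positive slope and 2.63% with one at that p. Junb was among them at 0.0286, Egr1 at 0.0456 and Gadd45g at 0.0403.

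The other called genes had slopes on both sides of 0. Of the 40 higher genes outside the immediate early lists 19 had a positive slope, 0 of them at an unadjusted p under 0.05, and their median slope was -0.00261, against 0.0309 for the 17. Of the 20 lower genes 6 had a negative slope, 0 at that p. Bdnf had a slope of 0.00773 ± 0.0159, Tnfrsf25 of -0.00817 ± 0.0109 and Hsd17b13 of -0.0308 ± 0.0298. Whether the slopes of both sets of genes differ was not tested.

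**Figure D5:**
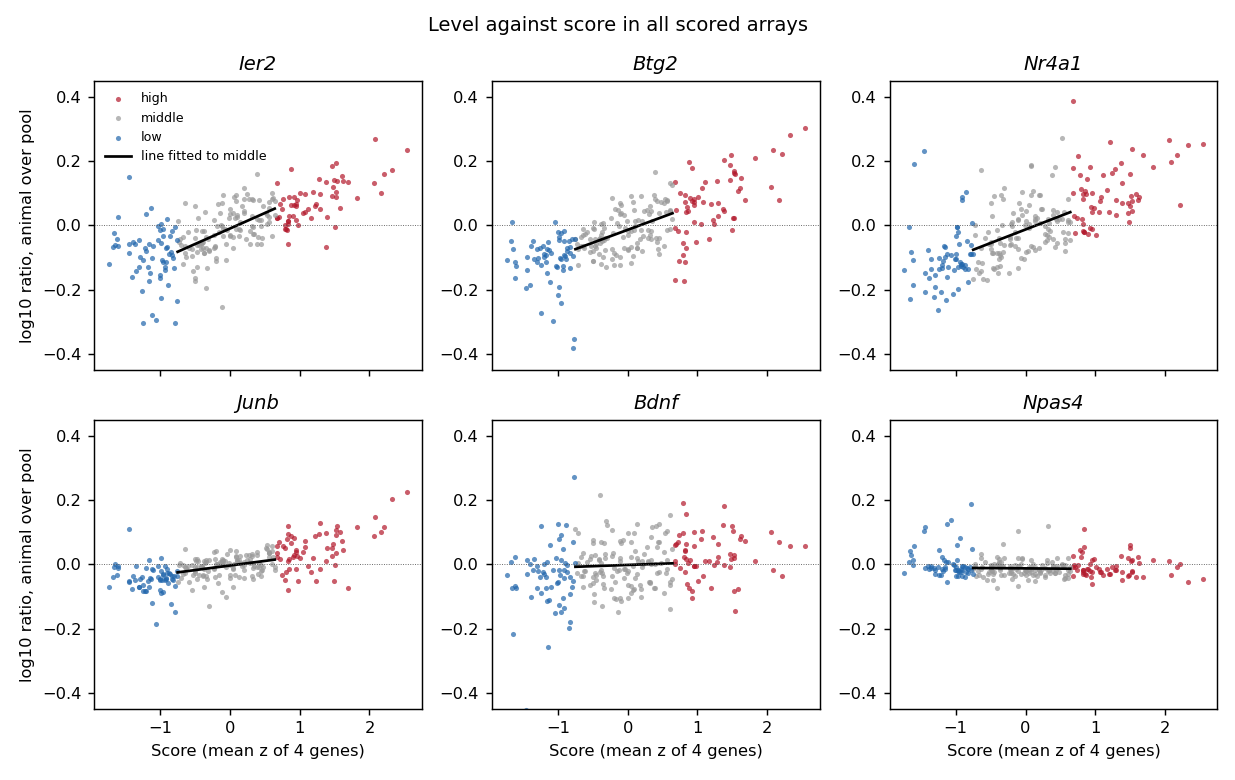
Log10 ratio of animal to pool against the score in all scored brains for 6 genes, with high score brains in red, middle brains in grey and low score brains in blue, and a line fitted to the middle brains alone. The slopes of Ier2, Btg2, Nr4a1 and Junb are positive, those of Bdnf and Npas4 are near 0, and 1 point of Bdnf lies outside the plotted range.

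The groups differed in animal number, the only order the labels give. High score brains had lower numbers, 152 ± 105 against 203 ± 107 in low score brains (mean ± SD; permutation test with 100000 draws, two-sided, p = 0.00860, adjusted over 5 properties of the arrays 0.0430). Within the lower-numbered animals (41 high and 26 low score brains) 14 of the 45 immediate early genes rose, against 0.174% of all genes, and 13 of the 14 were among the 17 above. Within the higher-numbered ones (21 and 36) 10 rose, against 0.105%, all among the 17. With 6 bins of numbers as a block the same 17 rose, against 0.418% of all genes. Over all genes that block gave 48 higher and 20 lower, among them 42 of the 57 higher and 8 of the 20 lower genes reported above. Nr4a1 differed by 0.220 in lower and 0.179 in higher numbers, Ier2 by 0.162 and 0.159, and Egr1 by 0.210 and 0.185. Bdnf differed by 0.103 and 0.0452, with limma's adjusted p at 0.00722 and 0.694. The difference between high and low score brains changed with animal number for 0 genes (limma interaction, adjusted p under 0.05), while 323 had an unadjusted p under 0.05 (2.81%).

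The Y-linked transcript Eif2s3y, which divides the animals, was above -0.6 in 32 of 62 high score brains (51.6%) and 28 of 62 low score brains (45.2%; Fisher's exact test, two-sided, p = 0.590). The spread, median and missing values of the arrays gave adjusted permutation p-values of 0.962, 0.512 and 0.623.

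Of 36 gene lists, of pathways, cell types and regions, 29 had no member called. The lists held 4 to 25 measured genes and 0.671% of all genes were called, so a list without a call says little. The cerebellum list had a median difference of -0.0590, 8 of 9 differences negative and 6 at an unadjusted p under 0.05. Gabra6, the GABA receptor subunit of granule cells, differed by -0.190 ± 0.0744 (limma, adjusted p = 0.231). The mean level of that list ran from -0.624 through 0.00614 to 0.102 in high score brains and from -0.574 through 0.0146 to 0.263 in low score brains. The pituitary list had a median difference of -0.0732, with Prl, the hormone prolactin, at -0.165 and Gh, growth hormone, at -0.130, and 0 of 7 members at an unadjusted p under 0.05. Its mean level ran from -0.886 through -0.674 to 0.522 in high score brains and from -0.840 through -0.629 to 0.647 in low score brains. With the scores of 5 region lists as covariates, 17 of the 45 immediate early genes rose, 16 of them among the 17 above, against 39 higher and 6 lower genes in all. Rgs2 no longer passed (adjusted p = 0.0790), and Nfil3 did (0.0270).

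The core TGACG shown in the promoters above was counted in all promoters, as a description with no test. Of 8622 tested genes with a promoter in RefSeq's entries, 25.5% had the core at any listed start, against 22 of 42 higher genes (52.4%), 10 of 13 called immediate early genes (76.9%) and 3 of 10 lower genes (30.0%). Higher genes had 1.45 listed starts each and all genes 1.26. Immediate early genes that were not called were not counted apart. Whether the core is commoner in the called ones than in the others is therefore unknown here. The full element TGACGTCA was in 2.30% of all genes and in 2 of 42 higher genes, and the CArG box in 1.62% and 0 of 42.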

How the data were processed

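The authors deposited log10 ratios, animal over pool, for each probe of arrays with 2 colours. Per the labels the animal carried Cy3 and the pool Cy5, while scanner, background correction and dye normalization are not given in these sources. Direction and base were read from the values: the upper cluster of Eif2s3y had a median of 0.319, near the log10 of 2 (0.301). Array medians ran from -0.00627 to 0.0250, values ended at -2 and 2, and 6 of 30628 pairs of arrays correlated below -0.3 (lowest -0.344). Each animal had 1 array, whose number limits the precision. For 1 sample the title and source name disagree, and the source name was used.

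Of 23388 probes 13645 carried 1 gene symbol, 48 several and 9695 none. Those measured on at least 90% of arrays were averaged per gene (13444 probes, 11485 genes), with gaps (0.710% of values) filled by the probe's mean, and symbols updated through GRCm38.p6. Differences are high minus low, fitted with limma 3.58.1 in R 4.3.3 and adjusted (Benjamini-Hochberg) over 11481 genes. The fit was tested on simulated data. The 4 score genes, the 36 gene lists and the tests were chosen with earlier results of these data known. Named are the 15 called genes of largest difference each way, the 10 of largest statistic, called members of 4 activity lists and up to 3 members of other lists. Further genes were named after their values were seen. The alternatives tried were other normalizations, filters, covariates, group sizes, scores and tests.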

Additional observations from a re-analysis of the deposited data

How the results depend on the processing

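All 57 higher and all 20 lower genes kept their sign under 25 alternatives (24 for Mpst, Apeh and Mybpc3, whose probes were not measured on every array). Each alternative reused brains in which these genes had been called, so a kept sign is no independent support. In the middle brains, 19 of the 40 higher genes outside the immediate early lists had a positive slope. Of the 20 lower genes 6 had a negative one there. Of the higher genes 10 passed in every alternative (Btg2, Ccn1, Csrnp1, Egr1, Egr4, Ier2, Junb, Klf2, Nr4a1 and Ptgs2) and 34 in at least 20. Of the lower genes 0 passed in every alternative and 2 (Il23a and Ung) in at least 20. In the 24 alternatives planned, 10 to 23 immediate early genes were called higher and 0 lower. Counts over all genes, 57 higher and 20 lower as reported, moved more. There were 20 higher and 7 lower in lower-numbered animals, 12 and 0 in higher-numbered ones, 16 and 1 with 31 brains a group, 18 and 5 with all scored brains split at the middle, 140 and 166 with the slope over all scored arrays, 104 and 109 with a glucocorticoid score as covariate, 90 and 88 after quantile normalization, and 119 and 151 with Dusp1 left out of the score. Lower genes were 53 without the 12 arrays of largest spread, 53 with spread as a covariate, 6 with region scores, 5 without Fos, 13 without Arc and 44 by the Wilcoxon rank sum test. The counts by animal number and with 31 brains a group rest on fewer brains, and the cause of the others was not tested. Of 99 sign changes among 3564 values of 143 genes, 0 were in a gene called in either fit. Prl turned to 0.0138 with the split at the middle, and Gh to 0.0307 and Jun to 0.00854 in higher-numbered animals. Nr4a3 turned to -0.00395 in lower-numbered ones. Eif2s3y turned to -0.0249 with number bins, -0.00884 with region scores, -0.0467 with 31 brains a group, and -0.0225 and -0.0167 without Egr2 and Arc in the score. A block of number bins with Eif2s3y, chosen after seeing the data, gave 47 higher and 21 lower. With 1 array per animal and no intensities, technical error and signal over background are unknown.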

Other observations

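Some probes that carry no gene symbol also passed the test between the groups. Fitted together with all probes, 25 of 9561 such probes were higher in high score brains and 31 lower (limma, adjusted p under 0.05), with differences up to 0.129 and down to -0.0986. What they measure is not known here, so they entered no comparison above.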
